A study of Mus musculus with 12 samples.

Results

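Intracisternal A-particle (IAP) elements are endogenous retroviruses of the mouse. An intact copy has an internal part that codes for the gag, protease and polymerase proteins, flanked by 2 long terminal repeats (LTRs) that carry the promoter and the polyadenylation signal, and many genomic copies are solitary LTRs. In somatic and embryonic stem cells IAPs are held silent by DNA methylation and by H3K9me3, which KRAB zinc finger proteins bring in through TRIM28 and SETDB1, and IAP RNA is known from mouse oocytes and preimplantation embryos. The IAP features of 12 deposited libraries were taken as every Repbase consensus of Mus musculus that is classed as ERV2 and has IAP in its name. That gave 24 of the 347 repeats and of the 25091 genes and repeats in the files, and 24 of 195 ERV2 repeats. A feature is a consensus that stands for all copies of a subfamily, so that it has no single place in the genome and a read from a solitary LTR cannot be told apart from a read of a whole element. There were 9 internal parts, with consensus lengths from 3574 to 7680 bases, and 15 LTRs of 292 to 492 bases. The name of IAPA_MM gives neither class, and it was placed with the LTRs by its length of 334 bases.

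The RNA-seq compared zygotes injected with siRNA against Lsm1 (Lsm1_KD) with zygotes injected with scramble siRNA (Ctrl), 2 libraries each. The RIP-seq precipitated RNA with anti-FLAG affinity gel from lysates of zygotes injected with FLAG-tagged Lsm1 mRNA (FLAG) and from a control (Ctrl), and sequenced part of each lysate (Input) and the pull-down (IP), 2 libraries in each of the 4 groups. All came from B6D2F1 females of 8 to 10 weeks, with collection 18 to 20 h after hCG, the hormone that induces ovulation. LSM1 belongs to a ring of LSM proteins in the cytoplasm that takes up RNAs with short poly(A) tails and hands them to the decapping enzyme. Endogenous Lsm1 RNA was at 61.7 and 69.7 counts per 1e6 counts (CPM) in Lsm1_KD and at 152.3 and 144.0 CPM in Ctrl, so it was reduced and not absent. The treatment field of the RIP control names untagged Lsm1 mRNA and its titles name IgG. Lsm1 RNA was at 16.3 and 16.1 CPM in the Ctrl Input, while the FLAG Input held 9931 and 14730 CPM, and injected Lsm1 mRNA is therefore not seen in the control. The labels put the siRNA injection in the zygote, while the study also describes injection of oocytes.

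RNA-seq libraries held 4636492 to 13968315 estimated counts and RIP-seq libraries 9865512 to 31586450. FLAG IP replicate 1 stood apart from the other libraries. Repeats took 12.7% of its counts, against 2.63% in FLAG IP replicate 2 and 0.102% to 1.96% in the others, and its summed oocyte and zygote markers were at 1390 CPM, against 3309 to 6793 CPM in the other RIP-seq libraries. In the RNA-seq all 10 oocyte and zygote markers were detected in every library, with 8468 to 11500 CPM in sum. Of 12 cumulus and granulosa cell markers, 6 or 7 were at 0 in each RNA-seq library, with 39.8 to 60.5 CPM in sum, and their sum was 98.2 to 152.5 CPM in the RIP-seq. Of the 10 of them tested in the RIP-seq, 3 were called higher in the FLAG IP over its Input (median 2.11, log2), where 21.0% of all features were. In the Ctrl IP over its Input 0 of these markers were called higher (median 1.30, log2), where 2.12% of all features were. The summed CPM of the cumulus and granulosa cell markers was not higher in the FLAG IP. The 8 sperm markers summed to 7.77 and 11.7 CPM in Lsm1_KD, above the 3.09 and 3.16 CPM in Ctrl, with 0 of the 2 tested called, and to 7.28 to 15.3 CPM in the RIP-seq. The 5 blood markers summed to at most 7.01 CPM. The part of these cell types in the results on IAPs was not tested. With 2 libraries per group, and no label that says whether they came from separate collections of embryos, the p-values measure only the spread between these libraries.

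IAP RNA was a small share of the zygote transcriptome. It made up 627 and 1106 counts in Lsm1_KD and 1639 and 910 counts in Ctrl, which is 0.00997% to 0.0135% of the counts of a library. In Lsm1_KD it was 9.03% (95% Wilson interval 8.38 to 9.72) and 8.67% (8.19 to 9.17) of all repeat counts, and in Ctrl 11.2% (10.7 to 11.7) and 12.1% (11.3 to 12.8). Thus the share of IAPs among repeats was lower in both Lsm1_KD libraries than in both Ctrl libraries, while the share of repeats among all counts was 0.150% and 0.115% in Lsm1_KD and 0.105% and 0.102% in Ctrl. These intervals cover counting error only.

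Per length, the RNA of LTRs stood far above that of internal parts. Summed over each class, LTRs reached 612 and 639 TPM (transcripts per 1e6, a scale that divides counts by effective length) in Ctrl, and internal parts 29.8 and 30.5 TPM, a ratio of 20.5 and 20.9. The ratio was 24.5 and 53.3 in Lsm1_KD. The TPM of a short feature depends strongly on the fragment lengths that Salmon assumes for a library, so that the ratio is less firm than the counts. The highest levels in Ctrl were IAPEY5_LTR (202 ± 12.3 TPM, SD, n = 2), IAPEY3C_LTR (158 ± 9.78), IAPEY3_LTR (62.4 ± 30.0), RLTR2aIAP_MM (41.4 ± 12.3), IAPLTR1a_MM (40.3 ± 12.3) and IAPEY2_LTR (36.7 ± 5.75). From the third of these on, neighbours differed by less than the larger of their SDs. IAPEZI, the internal part of the IAP subfamily with the youngest and most active copies, was the highest internal part in Ctrl at 9.34 ± 1.60 TPM, followed by IAPEY5_I at 7.81 ± 2.26 TPM, which it exceeded by less than the SD of either. IAPLTR4 was at 0 counts in both Ctrl libraries, and IAP1-MM_LTR and IAPLTR1_Mm were at 0 counts in both Lsm1_KD libraries, where 3 counts, the limit that a count of 0 allows, correspond to 0.647 and 0.270 CPM.

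In the main test by edgeR, knockdown of Lsm1 was followed by no called change of any IAP feature. Of the 24 features, 16 passed the filter on low counts, namely 7 internal parts and 9 LTRs, and the other 8 were at no more than 1.78 CPM in any RNA-seq library. In the quasi-likelihood test of edgeR, 0 of the 16 were higher and 0 were lower at a Benjamini-Hochberg adjusted p under 0.05, where 6.45% of the 11335 features tested were higher and 4.56% were lower. In pooled embryos, fewer cells that hold an RNA and less of it per cell cannot be told apart. Without adjustment, 2 LTRs were higher and 1 was lower at p under 0.05, beside 1612 of all 11335 features higher and 1463 lower. DESeq2 gave 1 LTR as higher and 0 as lower, beside 958 of all features higher and 793 lower. It gave no adjusted p for 6 of the 16. The median log2 fold change was -0.45 for internal parts and 0.60 for LTRs, against 0.01 for all features. The other ERV2 repeats had a median of 0.65 with 3 of 51 higher, ERV1 repeats 0.32 with 0 of 17 higher, ERV3 repeats 1.39 with 2 of 6 higher, and L1 repeats 0.75 with 0 of 17 higher.

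Summed over the class, IAP LTRs were at 58.0 and 60.9 CPM in Lsm1_KD and at 39.7 and 45.4 CPM in Ctrl. The groups did not overlap, and the mean of Lsm1_KD (59.5 ± 2.02 CPM, SD, n = 2) was 1.40 times that of Ctrl (42.5 ± 4.02 CPM). Internal parts summed to 81.1 and 40.5 CPM in Lsm1_KD and to 70.5 and 79.8 CPM in Ctrl. Here the knockdown libraries differed from each other by more than either differed from Ctrl replicate 1, and the groups overlapped, with 60.8 ± 28.7 CPM against 75.1 ± 6.55 CPM. A sum over a class is not changed by how Salmon splits reads between consensus sequences of that class, but reads shared with the other class, with other repeats or with RefSeq transcripts could still move it, which was not tested. With 2 against 2 libraries no exact permutation test of a sum can reach 0.05, and none was run.

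Among the LTRs, RLTR2aIAP_MM had the smallest p. The study, which used DESeq2, reports this repeat as upregulated in Lsm1_KD zygotes and bound by LSM1. DESeq2 called it higher here, while the main test by edgeR did not. It was at 14.2 and 12.2 CPM in Lsm1_KD and at 4.74 and 3.41 CPM in Ctrl. Both Lsm1_KD libraries lay above both Ctrl libraries, and the log2 fold change was 1.67 (SE 0.50), with an adjusted p of 0.058 by edgeR that lay between 0.022 and 0.97 over 15 other settings. IAPEY2_LTR was at 7.73 and 7.81 CPM in Lsm1_KD and at 3.09 and 2.77 CPM in Ctrl. That is a log2 fold change of 1.41 (SE 0.61, adjusted p = 0.17 by edgeR, range 0.025 to 0.74), with no overlap of the groups. IAPLTR1a_MM, the LTR that belongs with the internal part IAPLTR1a_I_MM by name, was at 5.47 and 6.62 CPM in Lsm1_KD and at 2.17 and 3.78 CPM in Ctrl, again without overlap, with a log2 fold change of 1.07 (SE 0.69, adjusted p = 0.35 by edgeR, range 0.093 to 0.67).

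IAPEY5_LTR, the most abundant IAP LTR, was at 17.3 and 19.4 CPM in Lsm1_KD and at 10.4 and 12.9 CPM in Ctrl. RLTR2IAP_MM was at 1.61 and 1.19 CPM in Lsm1_KD and at 1.05 and 0.709 CPM in Ctrl. Both had their knockdown libraries above both controls without passing the test. Other LTRs leaned the opposite way. IAPEY3_LTR was at 0.469 and 1.18 CPM in Lsm1_KD and at 5.58 and 3.10 CPM in Ctrl, a log2 fold change of -2.32 (SE 0.95, adjusted p = 0.15 by edgeR, range 0.023 to 0.54). IAPEY3C_LTR was at 5.27 and 8.05 CPM in Lsm1_KD and at 8.67 and 10.8 CPM in Ctrl. LTRIAPEY was at 1.33 and 1.74 CPM against 2.15 and 1.79 CPM. IAPA_MM overlapped between the groups, with 3.26 and 0.705 CPM in Lsm1_KD and 0.870 and 3.93 CPM in Ctrl. Thus the fold changes of the LTRs had both signs, and 0 of the 9 tested were called. Of the 9 tested, 5 had both Lsm1_KD libraries above both Ctrl libraries and 3 had both below, where 29.2% of all features tested lay above and 28.6% below in this way.

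Of the 7 internal parts tested, 0 had both Lsm1_KD libraries above both Ctrl libraries and 2 had both below. Of all features tested, 29.2% lay above and 28.6% below in this way. IAPEZI was at 32.8 and 16.4 CPM in Lsm1_KD and at 22.0 and 29.3 CPM in Ctrl, with both Ctrl libraries inside the span of Lsm1_KD and a log2 fold change of -0.07 (SE 0.39, adjusted p = 0.93 by edgeR). IAPLTR1a_I_MM was at 13.1 and 5.91 CPM in Lsm1_KD and at 13.0 and 14.7 CPM in Ctrl, a log2 fold change of -0.58 (SE 0.49, adjusted p = 0.50). Its 2 knockdown libraries differed by more than the groups did.

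IAPEY3_I, which has the longest consensus (7680 bases), was at 6.66 and 3.67 CPM in Lsm1_KD and at 8.88 and 10.7 CPM in Ctrl. This was a log2 fold change of -0.95 (SE 0.55, adjusted p = 0.30 by edgeR), and IAPLTR4_I, at 8.70 and 3.70 CPM against 10.8 and 11.6 CPM, had one of -0.89 (SE 0.55, adjusted p = 0.33). These 2 of the 7 tested internal parts had both Lsm1_KD libraries below both Ctrl libraries, where 28.6% of all features tested lay below in this way. IAPEY5_I was at 14.3 and 9.59 CPM against 13.8 and 9.52 CPM, and the 2 scarce internal parts IAP1-MM_I (2.22 and 0.367 CPM against 1.38 and 1.92 CPM) and IAPEY4_I (1.56 and 0.367 CPM against 0.202 and 1.24 CPM) overlapped as well. In every one of the 7 internal parts Lsm1_KD replicate 1 was higher than Lsm1_KD replicate 2. Without replicate 1 their median was -1.26, and without replicate 2 it was 0.32, so that the direction of the internal parts rests on which knockdown library is read.

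**Figure D1:**
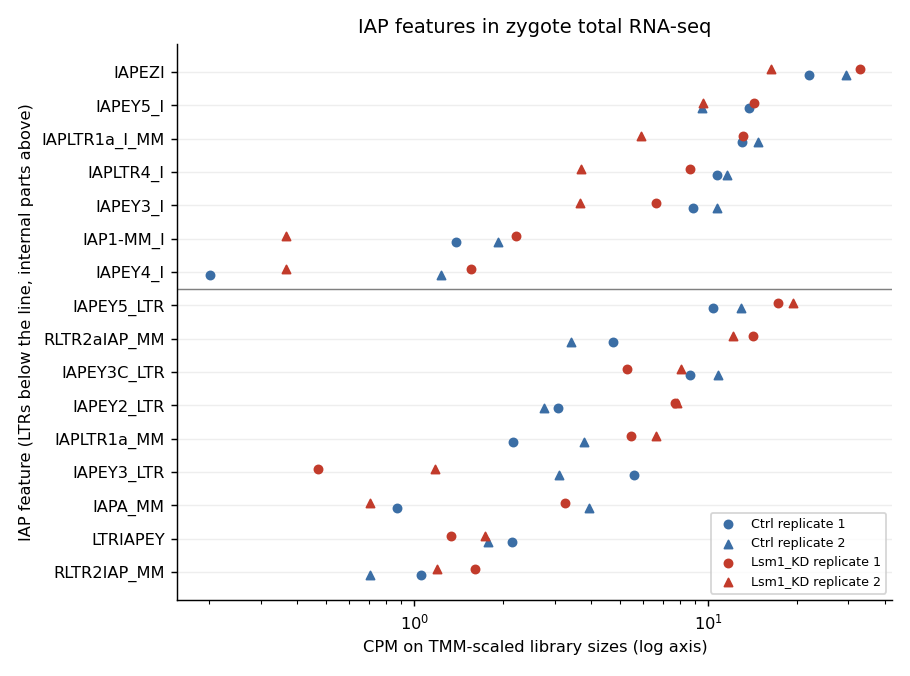
Level of the 16 tested IAP features in each RNA-seq library, as CPM on a log axis. Circles are replicate 1 and triangles replicate 2, with Ctrl in blue and Lsm1_KD in red; LTRs are below the line and internal parts above it. RLTR2aIAP_MM, with 14.2 and 12.2 CPM in Lsm1_KD and 4.74 and 3.41 CPM in Ctrl, shows separate groups, and IAPEZI shows 2 Ctrl libraries between the Lsm1_KD libraries.

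The change of an RNA after knockdown also varied with its length across genes. The median log2 fold change was 1.44 in the 78 genes of at most 500 bases, 0.90 in the 672 genes above 500 and up to 1000 bases, 0.10 in the 2469 genes above 1000 and up to 2000 bases, and -0.19 in the 1357 genes of over 6000 bases. IAP LTRs, with a median of 0.60 and lengths of 292 to 492 bases, lay below the genes of their own length, and internal parts, at -0.45, lay below the long genes. The trend of the genes with length was also taken out of each library, a setting added after the data were seen. The median of the LTRs became -1.39, and that of internal parts was -0.41. In that setting 2 LTRs were called lower and 0 higher, beside 467 of all 11335 features lower and 547 higher. RLTR2aIAP_MM then had a log2 fold change of 0.04 (adjusted p = 0.97 by edgeR). The length of the RNA that a repeat's reads come from is not known here, since a consensus of LTR length can be read from a longer transcript.

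**Figure D2:**
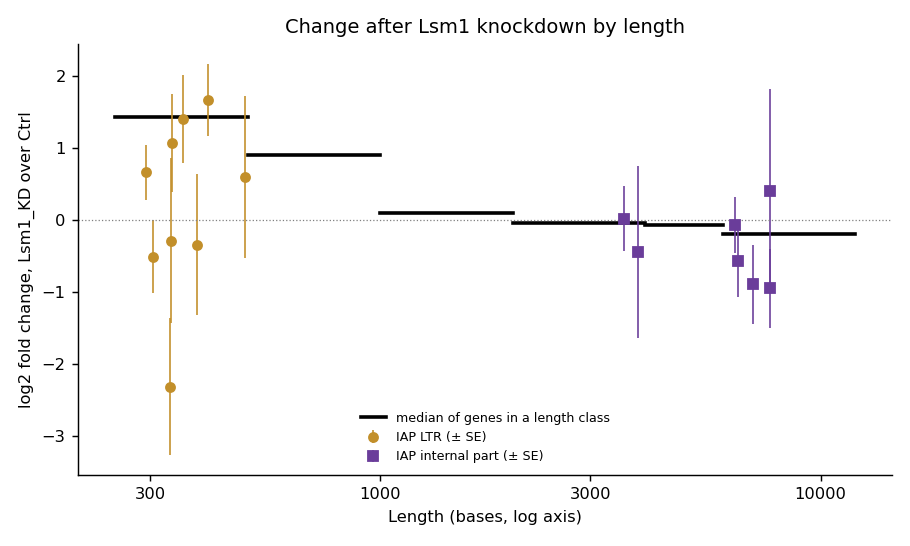
Log2 fold change of Lsm1_KD over Ctrl against length in bases (log axis), for IAP LTRs (circles) and internal parts (squares) with their SE. Black lines are the medians of the genes of a length class, the first class being up to 500 bases and the last over 6000 bases, and they fall from 1.44 to -0.19 as length grows.

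The ratio of internal to LTR counts needs no scaling between libraries, and its values did not overlap between the groups compared. It does set long features against short ones, and the change of genes after knockdown varied with length. With that trend taken out, the median log2 fold change was -1.39 for LTRs and -0.41 for internal parts. The part of length in the ratio was not tested. There were 1.78 and 1.76 counts on internal parts per count on LTRs in Ctrl, and 1.40 and 0.666 in Lsm1_KD. In the RIP-seq the ratio was 1.66 and 1.94 in the Ctrl Input, 3.75 and 2.81 in the FLAG Input, 4.50 and 4.22 in the Ctrl IP and 6.16 and 4.99 in the FLAG IP. Both libraries were lower in Lsm1_KD than in Ctrl, higher in the FLAG Input than in the Ctrl Input, and higher in each IP than in its own Input. IAPEZI and IAPLTR1a_I_MM together made up 49.7% to 56.6% of internal counts in the RNA-seq and 69.4% to 78.4% in the RIP-seq. Among the 3 subfamilies tested as LTR and internal part in the RNA-seq, the LTR had the higher fold change in IAPEY5 (0.66 against 0.02, log2) and IAPLTR1a (1.07 against -0.58), and the internal part in IAPEY3 (-0.95 against -2.32).

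**Figure D3:**
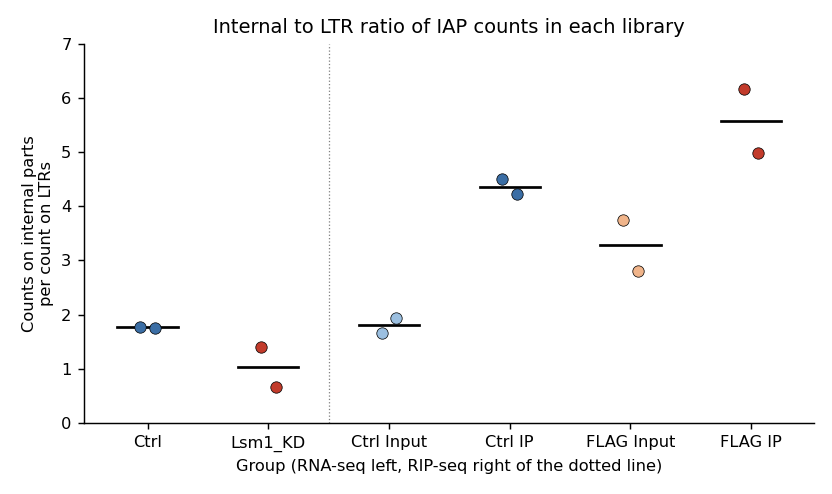
Counts on the 9 IAP internal parts per count on the 15 IAP LTRs in each library (points) with the mean of the group (line). The ratio is 1.40 and 0.666 in Lsm1_KD against 1.78 and 1.76 in Ctrl, and 6.16 and 4.99 in the FLAG IP.

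Genes that silence or process retrotransposon RNA were read from 3 lists. Of 31 listed genes of H3K9me3 and KRAB zinc finger silencing, 29 were tested, and 3 rose in Lsm1_KD and 0 fell, where 6.45% of all features tested were higher and 4.56% lower. Mphosph8, a HUSH complex protein that binds H3K9me3, was at 2445 and 3020 CPM in Lsm1_KD and at 1386 and 1129 CPM in Ctrl, a log2 fold change of 1.12 (SE 0.20, adjusted p = 0.0086 by edgeR). Cbx1, which codes for HP1 beta, rose by 1.09 (SE 0.24, adjusted p = 0.020 by edgeR), from 89.9 and 67.6 CPM to 144.1 and 191.4 CPM. For that mRNA the study reports little change in its RNA-seq and no significant change by qPCR in Lsm1_KD zygotes. Cbx3, for HP1 gamma, rose by 1.62 (SE 0.42, adjusted p = 0.036 by edgeR), from 51.1 and 132.7 CPM to 375.4 and 189.4 CPM. Trim28 was at 354.5 and 313.1 CPM in Lsm1_KD and at 204.7 and 367.3 CPM in Ctrl, and Setdb1 at 152.8 and 192.5 CPM against 203.2 and 223.6 CPM, neither past the test (adjusted p = 0.64 and 0.38 by edgeR). The list had a median log2 fold change of 0.18.

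Of 12 DNA methylation genes, 10 were tested, 1 rose and 0 fell, with a median of 0.05, beside 6.45% of all features higher and 4.56% lower. The one that rose was Hells, a chromatin remodeller needed for DNA methylation of repeats, which was at 246.1 and 268.8 CPM in Lsm1_KD and at 118.2 and 115.3 CPM in Ctrl (log2 fold change 1.14, SE 0.20, adjusted p = 0.0075 by edgeR). Of 25 genes of small RNA pathways, RNA modification and retrovirus restriction, 20 were tested, 0 rose and 1 fell, with a median of -0.09, beside the same shares of all features. Drosha, the nuclease that cuts primary miRNAs, was at 49.3 and 65.9 CPM in Lsm1_KD and at 109.6 and 130.3 CPM in Ctrl (log2 fold change -1.05, SE 0.24, adjusted p = 0.024 by edgeR).

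Before the pull-down, the summed CPM of IAP internal parts was higher in both FLAG Input libraries than in both Ctrl Input libraries, with no feature called. Internal parts summed to 232.9 and 175.7 CPM in the FLAG Input and to 104.0 and 94.2 CPM in the Ctrl Input. The groups did not overlap, and the mean (204.3 ± 40.5 CPM, SD, n = 2) was 2.06 times that of the Ctrl Input (99.1 ± 6.92 CPM). LTRs summed to 62.2 and 62.6 CPM in the FLAG Input and to 62.8 and 48.5 CPM in the Ctrl Input and overlapped. As a share of repeat counts internal parts overlapped too, at 8.44% and 4.68% in the FLAG Input and 4.83% and 5.61% in the Ctrl Input. No feature passed the test by edgeR, with 0% of 18972 features higher and 0% lower, and 0 of the 24 IAP features. Without adjustment, 2 of them were higher at p under 0.05 and 0 lower, beside 167 of all features higher and 9 lower. DESeq2 called 0 of the 24, beside 1 of all features higher.

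All 9 internal parts had both FLAG Input libraries above both Ctrl Input libraries, as did 6 of 15 LTRs, and none lay below, where 18.4% of all features lay above and 15.9% below in this way. The median log2 fold change was 1.12 for internal parts (0.70 to 1.45) and 0.28 for LTRs (-0.44 to 1.89), against 0.02 for all features. IAPEZI was at 113.1 and 88.7 CPM in the FLAG Input and at 49.8 and 46.7 CPM in the Ctrl Input, a log2 fold change of 1.07 (SE 0.64, adjusted p = 1.0 by edgeR). IAPLTR1a_I_MM was at 51.3 and 39.5 CPM against 22.5 and 18.8 CPM (1.14, SE 0.68), and IAPEY3_I at 19.0 and 15.1 CPM against 8.22 and 7.43 CPM (1.12, SE 0.52). The 2 features under an unadjusted p of 0.05 were scarce. IAPLTR4 was at 0.552 and 0.492 CPM against 0.185 and 0.103 CPM (1.89, SE 0.80), and IAPLTR3_I at 1.74 and 1.39 CPM against 0.641 and 0.492 CPM (1.45, SE 0.64). A higher level in the FLAG Input was not particular to IAPs, since the median of L1 repeats was 1.03, that of ERV3 repeats 0.83, that of ERV1 repeats 0.60 and that of other ERV2 repeats 0.60. Every ratio of IP to Input below divides by these Inputs, whose summed CPM of internal parts did not overlap.

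The pull-down with FLAG held far more IAP RNA than its lysate. Internal parts summed to 3941 and 982 CPM in the FLAG IP and to 232.9 and 175.7 CPM in the FLAG Input, a 12.1-fold higher mean, and LTRs to 640 and 197 CPM against 62.2 and 62.6 CPM, a 6.70-fold higher mean. Each IP library was above both Inputs in both classes. By edgeR, 23 of the 24 features were higher and 0 lower, where 21.0% of all features were higher and 5.49% lower. The exception was IAPEY5_LTR, with 11.0 and 9.01 CPM in the FLAG Input and 20.5 and 12.8 CPM in the pull-down (adjusted p = 0.19). The median log2 fold change was 3.41 for internal parts and 3.26 for LTRs, against 0.49 for all features. This shift of all features became 1.16 when no TMM factors were used, and 23 features were called with that scaling as well as with the size factors of DESeq2.

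IAPEZI was at 1556 and 437.0 CPM in the FLAG IP and at 113.1 and 88.7 CPM in the FLAG Input, a log2 fold change of 3.30 (SE 0.69, adjusted p = 0.0099 by edgeR). IAPLTR1a_I_MM was at 1388 and 291.2 CPM against 51.3 and 39.5 CPM (4.21, SE 0.76, adjusted p = 0.0058 by edgeR). IAPEY3_I was at 281.8 and 80.4 CPM against 19.0 and 15.1 CPM (3.41, SE 0.55, adjusted p = 0.0040 by edgeR). In each of these 3 internal parts replicate 1 of the FLAG IP was at least 3 times replicate 2. IAPEY4_I had the highest fold change among the internal parts, from 3.11 and 4.22 CPM to 200.0 and 38.7 CPM (5.02, SE 0.71, adjusted p = 0.0028 by edgeR). IAPLTR4_I was at 215.0 and 69.4 CPM in the FLAG IP and at 22.9 and 13.4 CPM in the FLAG Input.

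Among the LTRs, RLTR2aIAP_MM was at 101.7 and 34.5 CPM in the FLAG IP and at 11.0 and 11.2 CPM in the FLAG Input, a log2 fold change of 2.62 (SE 0.45, adjusted p = 0.0050 by edgeR). IAPEY2_LTR went from 2.59 and 3.71 CPM to 67.2 and 18.6 CPM (3.77, SE 0.61, adjusted p = 0.0040). The 2 abundant LTRs IAPEY3C_LTR (17.8 and 16.6 CPM to 53.3 and 34.1 CPM) and IAPLTR1a_MM (8.18 and 7.00 CPM to 65.7 and 19.7 CPM) were called too. The 3 LTRs with the highest fold changes were scarce in the lysate. IAPLTR1_Mm went from 0.551 and 0.620 CPM to 57.5 and 12.7 CPM (5.90, SE 0.86, adjusted p = 0.0029). RLTR1IAP_MM went from 1.39 and 1.31 CPM to 71.6 and 14.2 CPM (4.99, SE 0.75, adjusted p = 0.0032 by edgeR). IAPEY4_LTR went from 0.315 and 0.203 CPM to 15.3 and 2.20 CPM (5.10, SE 1.22, adjusted p = 0.016 by edgeR). Its FLAG Input libraries held only 7.41 and 5.0 counts, against 280.2 and 26.95 counts in the FLAG IP. The filter on low counts took all 8 RIP-seq libraries together, the pull-downs included. The fold change and call of IAPEY4_LTR therefore rest on few Input counts. For IAPLTR1_Mm the FLAG Input libraries held 13.0 and 15.2 counts.

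The other called features were at most 11.4 CPM in either FLAG Input library, and each had both FLAG IP libraries above both Inputs. Among the internal parts, IAPEY5_I went from 11.4 and 8.16 CPM to 76.2 and 25.2 CPM, and IAPEYI from 5.27 and 2.89 CPM to 125.5 and 17.0 CPM. IAP1-MM_I went from 5.03 and 2.44 CPM to 57.3 and 11.5 CPM, and IAPLTR3_I from 1.74 and 1.39 CPM to 41.9 and 11.2 CPM. Replicate 1 exceeded replicate 2 of the FLAG IP in all of them. Of the LTRs, IAPA_MM went from 2.26 and 2.74 CPM to 37.7 and 9.87 CPM, LTRIAPEY from 1.74 and 0.854 CPM to 35.1 and 9.16 CPM, and IAP1-MM_LTR from 1.19 and 1.47 CPM to 39.7 and 6.71 CPM. IAPEY3_LTR went from 1.17 and 4.36 CPM to 28.2 and 8.07 CPM, and IAPLTR4 from 0.552 and 0.492 CPM to 20.1 and 7.03 CPM. IAPLTR3 and RLTR2IAP_MM were at 1.14 to 1.95 CPM in the FLAG Input, at most 14.1 CPM in FLAG IP replicate 1, and at 2.49 to 4.58 CPM in replicate 2.

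Retrotransposons other than IAPs were higher in the FLAG IP as well. Of the L1 repeats 44 of 45 were called, with a median log2 fold change of 4.81, of other ERV2 repeats 126 of 159 (4.04), of ERV1 repeats 47 of 59 (3.88) and of ERV3 repeats 14 of 20 (3.66). Relative to all repeats, IAPs were not enriched. They took 10.7% and 6.35% of repeat counts in the FLAG Input and 6.69% and 3.91% in the FLAG IP, and LTRs alone 2.25% and 1.67% in the Input and 0.934% and 0.653% in the IP, without overlap. Without FLAG IP replicate 1, the medians were 2.08 for internal parts and 1.95 for LTRs, against 0.099 for all features. Without FLAG IP replicate 2 they were 4.05 and 3.92, against 1.09. Without FLAG Input replicate 1 they were 3.83 and 3.14, against 0.91. Without FLAG Input replicate 2 they were 3.23 and 3.64, against 0.89. When RefSeq transcripts were tested singly rather than summed by gene, 0 of the 24 were called by edgeR, beside 4 of all 26480 features higher. The medians in that fit were 3.61 for internal parts and 3.46 for LTRs.

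**Figure D4:**
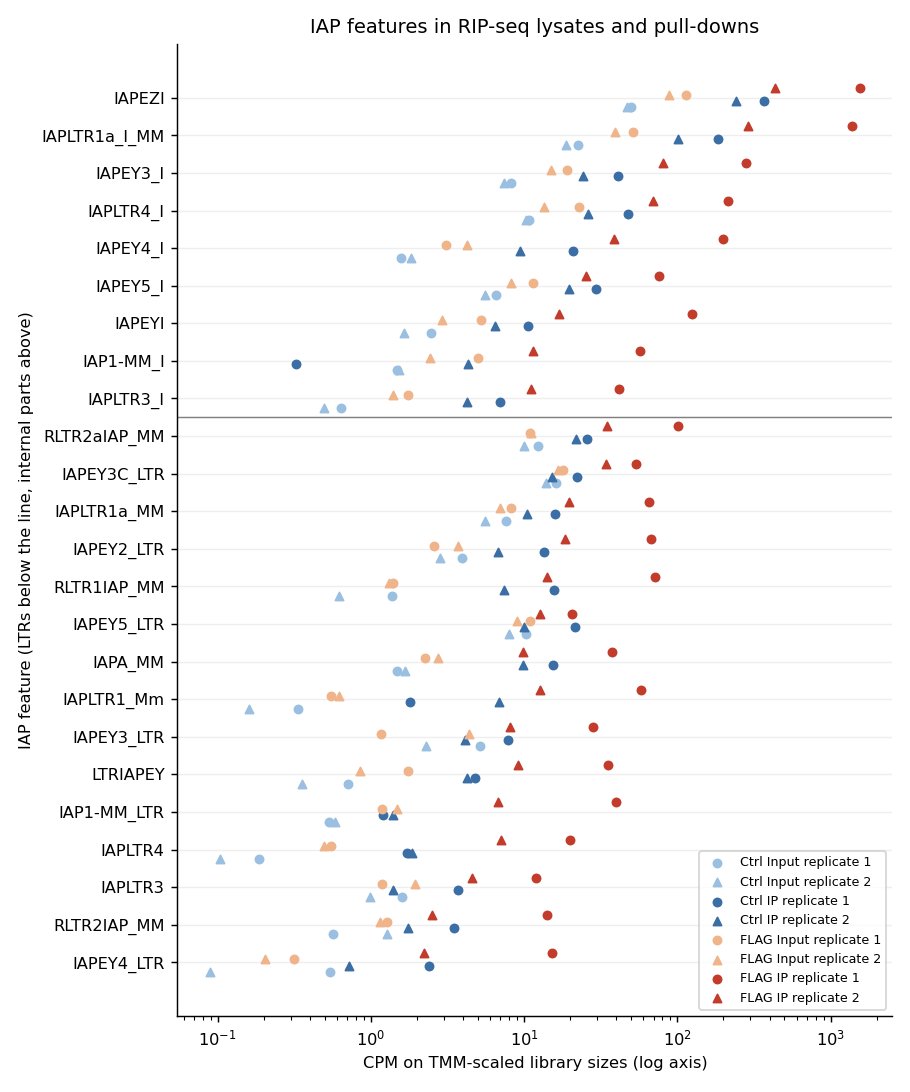
Level of all 24 IAP features in each RIP-seq library, as CPM on a log axis, with circles for replicate 1 and triangles for replicate 2. Ctrl libraries are blue and FLAG libraries orange to red, with the Input lighter than the IP. IAPEZI reaches 1556 CPM in FLAG IP replicate 1 and 437.0 CPM in replicate 2, with 365.4 and 242.1 CPM in the Ctrl IP.

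The control pull-down, which holds no tag by its treatment label, also held more IAP RNA than its lysate. Internal parts summed to 706.6 and 437.3 CPM in the Ctrl IP and to 104.0 and 94.2 CPM in the Ctrl Input, a 5.77-fold higher mean. LTRs summed to 156.9 and 103.6 CPM against 62.8 and 48.5 CPM, a 2.34-fold higher mean. Neither class overlapped. By edgeR, 6 of the 24 features were higher and 0 lower, where 2.12% of all features were higher and 0.00527% lower, and all 24 fold changes were above 0. With the lysate as a block, since the Input is part of the lysate that is precipitated, 14 of the 24 were higher, beside 1436 of all 18972 features. The medians were 2.05 for internal parts and 1.54 for LTRs, against 0.12 for all features. Genes of at most 500 bases had a median of 2.41 in the Ctrl IP over its Input and of 2.63 in the FLAG IP, so that RNAs as short as the LTRs were higher in both pull-downs. With the trend of genes with length taken out, 1 of the 24 features was called higher in the Ctrl IP, beside 254 of all 18972 features. In the FLAG IP 19 were then called higher, beside 3236 of all features.

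The features called in the control pull-down were mostly scarce in the lysate. IAPA_MM was at 15.5 and 9.82 CPM in the Ctrl IP and at 1.47 and 1.66 CPM in the Ctrl Input (log2 fold change 3.01, SE 0.60, adjusted p = 0.026 by edgeR). RLTR1IAP_MM was at 15.7 and 7.36 CPM against 1.37 and 0.623 CPM (3.49, SE 0.72, adjusted p = 0.031 by edgeR). IAPLTR1_Mm was at 1.80 and 6.82 CPM against 0.334 and 0.159 CPM (4.08, SE 0.85, adjusted p = 0.032). The remaining called LTR was IAPLTR4, at 1.71 and 1.85 CPM against 0.185 and 0.103 CPM (3.65, SE 0.80, adjusted p = 0.039 by edgeR). The Ctrl Input libraries held only 5.24 and 2.31 counts of IAPLTR4, and 9.43 and 3.57 counts of IAPLTR1_Mm. Since the filter on low counts included the pull-downs, the fold changes and calls of IAPLTR4 and IAPLTR1_Mm rest on few Input counts.

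The 2 internal parts called there were IAPLTR3_I, at 6.93 and 4.22 CPM against 0.641 and 0.492 CPM (3.28, SE 0.66, adjusted p = 0.027 by edgeR), and IAPEY4_I, at 20.7 and 9.36 CPM against 1.56 and 1.83 CPM (3.15, SE 0.67, adjusted p = 0.036). IAPEZI reached 365.4 and 242.1 CPM from 49.8 and 46.7 CPM, which is above both Inputs, and had a log2 fold change of 2.66 (SE 0.67, adjusted p = 0.067 by edgeR). IAPLTR1a_I_MM reached 184.8 and 100.7 CPM from 22.5 and 18.8 CPM (2.79, SE 0.71, adjusted p = 0.070). RLTR2aIAP_MM reached 25.8 and 21.8 CPM from 12.3 and 10.0 CPM (1.09, SE 0.44, adjusted p = 0.22 by edgeR). Without Ctrl IP replicate 1 the medians were 1.70 for internal parts and 0.99 for LTRs, and without Ctrl IP replicate 2 they were 2.377 and 1.95. Without Ctrl Input replicate 1 they were 2.375 and 1.36, and without Ctrl Input replicate 2 they were 1.99 and 1.37. With library totals in place of TMM factors 0 IAP features were called, beside 132 of all 18972 features higher. As a share of repeats, IAPs fell in the control pull-down too, from 7.75% and 8.49% of repeat counts in the Ctrl Input to 4.51% and 4.77% in the Ctrl IP.

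Whether tagged LSM1 pulled down more IAP RNA than the control did is the question of the RIP-seq, and it was tested as the ratio of IP to Input in FLAG over that in Ctrl. By edgeR, 0 of the 24 features were higher and 0 lower, with 0% of all 18972 features higher and 0% lower. Without adjustment, 4 IAP features were higher at p under 0.05, all of them LTRs, and 0 were lower. Of all 18972 features 756 were higher and 239 lower in this way, and of the 324 repeats tested 78 were higher. DESeq2 called 0 of the 24, beside 1 of all features higher and 1 lower. The 4 LTRs were IAP1-MM_LTR (log2 2.91, SE 1.04), IAPEY2_LTR (2.18, SE 0.79), RLTR2aIAP_MM (1.53, SE 0.61) and IAPEY3C_LTR (1.05, SE 0.48), each with an adjusted p of 0.79 by edgeR. The estimates were above 0 for 23 of the 24 features, with medians of 1.36 for internal parts and 1.49 for LTRs against 0.02 for all features, and with medians of 1.82 for other ERV2 repeats, 1.75 for ERV1 and 1.02 for L1. The ratio for IAPEZI was 0.65 on the log2 scale (SE 0.89, adjusted p = 0.83), that for IAPLTR1a_I_MM 1.42 (SE 0.95, adjusted p = 0.79) and that for IAPEY4_I 1.88 (SE 0.89, adjusted p = 0.79). A p that misses the threshold does not show that the pull-downs were alike.

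This comparison rested on 1 library. Without FLAG IP replicate 1, the medians were 0.03 for internal parts and 0.39 for LTRs, with 0 features called and 0 at an unadjusted p under 0.05. Without FLAG IP replicate 2, in which case FLAG IP replicate 1 stands alone for its group, 15 of the 24 features were called higher, as were 1725 of all 20792 features tested, with 4626 lower. For the summed classes, the FLAG fold of IP over Input was 2.09 times the Ctrl fold for internal parts and 2.86 times for LTRs, and it was 0.833 and 1.35 times without FLAG IP replicate 1. The oocyte and zygote markers given above moved with that library as well, and their part in the result was not tested.

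Taken lysate by lysate, 13 of the 24 features had both FLAG ratios of IP to Input above both Ctrl ratios, and 0 had both below, where 21.0% of all features lay above and 22.3% below in this way. RLTR2aIAP_MM had log2 ratios of 3.21 and 1.63 in FLAG and of 1.06 and 1.12 in Ctrl. IAPEY2_LTR had 4.67 and 2.31 in FLAG and 1.78 and 1.25 in Ctrl, and IAP1-MM_LTR 5.00 and 2.15 in FLAG and 1.10 and 1.19 in Ctrl. In these 3 LTRs the lower of the FLAG lysates was still above both Ctrl lysates. IAPEZI had 3.78 and 2.299 in FLAG and 2.87 and 2.37 in Ctrl, so that its second FLAG lysate lay below both controls. IAPLTR1a_I_MM had 4.76 and 2.88 against 3.04 and 2.42, with the second FLAG lysate between the controls. IAPEY5_LTR had 0.90 and 0.50 against 1.05 and 0.31 and overlapped in full.

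**Figure D5:**
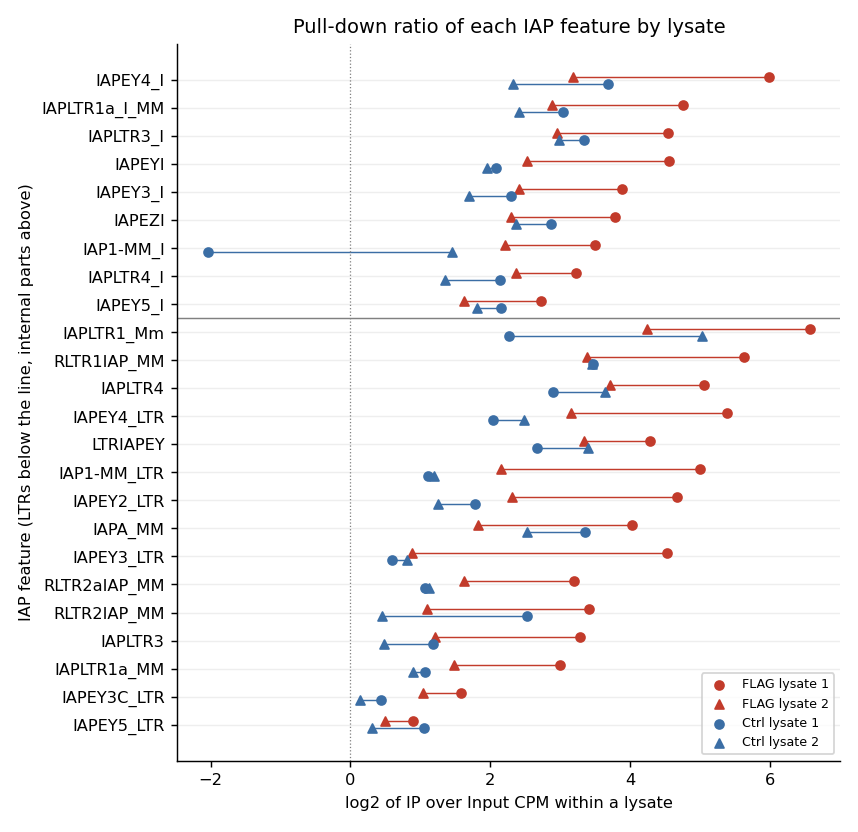
Log2 ratio of IP to Input CPM within each lysate, for every IAP feature, FLAG in red and Ctrl in blue, lysate 1 as circles and lysate 2 as triangles, joined by a line. All FLAG ratios are above 0 and FLAG lysate 1 is above FLAG lysate 2 in every feature; for IAPEZI the ratios are 3.78 and 2.299 in FLAG and 2.87 and 2.37 in Ctrl.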

How the data were processed

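Total RNA-seq and RIP-seq of mouse zygotes were analysed from deposited quantification of 12 libraries in 6 groups of 2, all grouped from their labels. The authors trimmed the reads and ran Salmon on RefSeq transcripts (mm10) and Repbase consensus sequences, which gave the deposited estimated counts and TPM values; FastQC and Trimmomatic are named in the submitters' processing notes. Of the nonzero counts of IAP features, 72.4% were not whole at a tolerance of 1e-06, because Salmon divides reads between similar sequences, so that values of single features are uncertain.

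Estimated counts of transcripts were summed by gene (37072 of 37366 transcripts matched a gene), repeats were kept single, and all were rounded. Tests were by quasi-likelihood in edgeR 4.0.16 under R 4.3.3, with TMM factors, filterByExpr and Benjamini-Hochberg adjustment over all features tested, with a call at an adjusted p under 0.05. RNA-seq and RIP-seq were fitted apart (common dispersion 0.112 and 0.239), and all 8 RIP-seq libraries entered 1 fit. CPM are on TMM-scaled library sizes, except those of Lsm1, which are on library totals. Features over 1000 bases were called internal parts. The test was tried on simulated data first.

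Same-numbered Input and IP libraries were taken as 1 lysate, since the study's methods take the Input from the precipitated lysate. Their deviations from group means correlated at r = 0.14 (FLAG) and 0.11 (Ctrl). Alternatives were DESeq2 1.42.0, limma 3.58.1 on log2(TPM + 1) or log2(TPM + 0.1), other scaling, no filter, single transcripts, a replicate block, each library left out, and, added after the data were seen, a trend with length and effective-length offsets. The IAP features, the gene and marker lists and the tests were chosen with earlier results of these data known. Features are named by the following rule: RNA-seq values for features past the filter, RIP-seq values for the 4 internal parts and 4 LTRs with the highest mean CPM, for called features and for RLTR2aIAP_MM, and, of each gene list, up to 4 called genes or the 2 most abundant. IAPEY5_LTR in the RIP-seq was named after its values were seen, and Trim28 and Setdb1 were named outside this rule. IAP consensus sequences were not used here.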

Additional observations from a re-analysis of the deposited data

How the results depend on the processing

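For the knockdown, DESeq2 called 1 IAP feature higher (958 of all 11335 features) and edgeR with no filter 1 (1033 of 16703). With limma, log2(TPM + 1) gave 2 higher and 1 lower (424 and 848 of 11335). On log2(TPM + 0.1) it gave 2 higher and 1 lower too (378 and 736). With the length trend taken out 2 were lower (467 of 11335), and the other settings gave 0. With that trend out, the log2 fold change was -0.40 for IAPEY2_LTR, -0.83 for IAPLTR1a_MM and 0.025 for IAPEZI, each with its sign turned. Leaving out 1 library, IAPEZI lay between -0.66 and 0.36, and the log2 ratio of summed internal parts between -0.89 and 0.11. As a share of repeat counts the log2 ratio of summed LTRs was 0.094, and in TPM 0.19.

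In the FLAG IP over its Input, limma on log2(TPM + 1) called 10 features higher, beside 489 of all 18972. On single transcripts edgeR called 0 higher, beside 4 of all 26480. With 1 library left out, the median log2 fold change lay between 2.08 and 4.05 for internal parts and between 1.95 and 3.92 for LTRs. In the Ctrl IP over its Input the number called higher was 12 with DESeq2 (1343 of all 18972 features), 14 with no filter (1597 of 23011) and 0 with library totals (132 of 18972). It was 0 with single transcripts (6 of 26480), 0 with limma at either pseudocount (94 features at 1, 177 at 0.1) and 1 with the length trend out (254). With 1 library left out, the median lay between 1.70 and 2.377 for internal parts and between 0.99 and 1.95 for LTRs. The FLAG over Ctrl ratio gave 0 to 15 with 1 library left out, and 0 in the other settings. There, with 1 library left out, IAPEZI lay between -0.53 and 1.29 and IAPLTR1a_I_MM between -0.089 and 2.14, the low ends being without FLAG IP replicate 1. With the replicate block, 14 IAP features were higher in the Ctrl IP over its Input (1436 of all 18972 features) and 0 in the knockdown (425 of all 11335). The RNA-seq replicates share only a number (r = -0.17), and the block changed no call of another comparison on IAP counts.

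The log2 ratios of the class sums moved by more than the spread between replicates as follows. As a share of repeat counts, internal parts were at 0.33 (FLAG Input over Ctrl Input), -0.54 (FLAG IP over Input), -0.47 (Ctrl IP over Input) and -0.073 (FLAG over Ctrl ratio), and LTRs at -0.57, -1.30, -1.74 and 0.44. In TPM, internal parts were at 1.96 (Ctrl IP) and 2.17 (FLAG over Ctrl ratio) and LTRs at 0.58 and 2.54. Without TMM factors, LTRs were at 3.60 (FLAG IP) and 2.21 (FLAG over Ctrl ratio). With 1 library left out, internal parts ranged from 0.83 to 1.23 between the Inputs, 2.26 to 4.27 in the FLAG IP, 2.14 to 2.83 in the Ctrl IP and -0.26 to 1.74 in the FLAG over Ctrl ratio, and LTRs from -0.010 to 0.36, 1.66 to 3.36, 0.90 to 1.496 and 0.43 to 2.13. The causes of these shifts were not tested. For named features, 533 of the remaining values kept their direction and side of the threshold, 22 passed it and 62 no longer did, of which 47 in the Ctrl IP over its Input. In the RNA-seq, 8 of the 24 features did not pass the filter on low counts.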
